A study of Saccharomyces cerevisiae with 9 samples.

Results

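The mRNAs of the mitochondrial large ribosomal subunit were examined in budding yeast, *Saccharomyces cerevisiae*, that lacked both poly(A)-binding protein Pab1 and its partner Pbp1, Pbp1 alone, or neither. The 39 members are the genes of the MRPL series together with *MRP7*, *MRP20*, *MRP49*, *IMG1* and *IMG2*. They were chosen by locus, and each was read from the spliced mRNA entry of its locus in a table of 6952 transcripts. All 39 were found. The RefSeq annotation gave each of them the symbol of a mitochondrial ribosomal protein, and they lie on 12 of the yeast chromosomes, from *MRP7* (YNL005C) on chromosome XIV to *IMG2* (YCR071C) on chromosome III.

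RNA-Seq was carried out on 3 strains, WT, *pbp1Δ* and *pab1Δpbp1Δ*, with 3 libraries of each. The strains are of the W303 background and MATa, and all of them, WT included, carry *ura3-1*, the *leu2* allele with mutations 3 and 112, and *his3-11,15*, as well as *trp1-1*, *ade2-1* and *can1-100*. In *pbp1Δ* the *PBP1* gene was replaced by *URA3* (*pbp1::URA3*). The *pab1Δpbp1Δ* strain was made from a *pbp1Δ* strain by replacing *PAB1* with kanMX (*pab1::kanMX*), since cells without Pab1 need a suppressor such as the loss of Pbp1 to live. Its control is therefore *pbp1Δ*. Cells were grown in YEPD, a rich medium with glucose, at 30°C, where respiration is largely repressed. The paper reports a longer doubling time for *pab1Δpbp1Δ* than for WT and *pbp1Δ*. Slower growth and the loss of Pab1 therefore cannot be told apart in these data. According to the study's methods, each mutant library is a separate isolate but the WT libraries are only technical replicates, whereas its results speak of biological replicates for every strain. If the methods are right, p-values against WT rest in part on technical spread.

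The library totals lay between 73062345 and 100361368 expected counts, and the count of a single member in a single library lay between 552 and 12277.5. *PAB1*, the deleted gene, had 22 to 50 counts in the *pab1Δpbp1Δ* libraries against 108388 or more in every library of the other strains, and *PBP1* had 143 or fewer in both mutant strains against 22789 or more in WT. The libraries of *pab1Δpbp1Δ* varied more among themselves, with a biological coefficient of variation of 17.0% in the fit with *pbp1Δ*, against 6.72% in the fit of *pbp1Δ* and WT. No spike-in is mentioned, so each value is relative to the RNA of its library, and a change per cell cannot be told apart from a change of the whole pool.

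Mitochondrial ribosomes translate the few mRNAs of the mitochondrial genome, which encode core subunits of the respiratory chain and ATP synthase. Their rRNAs are mitochondrial, but nearly all of their proteins are encoded in the nucleus, made in the cytosol and imported. Some of these proteins belong to families that bacterial ribosomes also have, and others are found only in mitochondria. Puf3, an RNA-binding protein of the Pumilio family, binds the 3′-UTRs of many yeast mRNAs for mitochondrial proteins at an element written TGTANATA as DNA, and it is known for promoting the decay of such mRNAs in cells grown on glucose.

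That element was searched for in the reference genome (RefSeq, build R64) within 200 bases after the stop codon, on the sense strand. Every one of the 39 members had it, 31 with 1 copy and 8 with 2, for 47 sites in all. The share of all 6002 protein-coding genes with the element in this window was 14.1% (844 genes). Among the proteins of the mitochondrial small subunit 31 of 32 genes had it, among mitochondrial translation factors 7 of 9, and among the cytosolic 60S proteins 4 of 82 (4.88%). The sites of members that stand at the extremes of the comparisons are shown here, 30 bases each, with the element in capitals.

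MRPL20: aataacaatcgTGTAAATActactctataa
MRP49: aagtttgttcaTGTATATAtcaaaaaacat
MRPL50: gcgtacaatctTGTATATAggcaacatcgc
MRPL37: tttggtatcctTGTAAATAaatatgtgtgt
MRPL44: acaagcaagccTGTAAATAatatatatgca
MRPL33: tgacttatataTGTATATAgtattattttt
MRPL17: cgtcaatcacaTGTAAATAtcattaaatga
MRPL40: tatattcgaccTGTATATAtgaaagcataa
MRPL24: tggttttccccTGTATATAaaaaagcatat
MRPL39: ttcatttatccTGTAAATAagtaatggata

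The first 5 are of members with the largest rises in *pab1Δpbp1Δ* and the last 4 of members among the largest falls in *pbp1Δ* or the lowest fold changes in *pab1Δpbp1Δ*, while *MRPL33* had the highest fold change in *pbp1Δ*. Since all 39 members have the element, these sites do not compare members with it to members without it. On R64 the *MRPL20* site lies at chrXI:599049-599078 on the minus strand, 27 bases after the stop codon, the *MRPL50* site at chrXIV:669719-669748 on the minus strand, 37 bases after it, and the *MRPL24* site at chrXIII:650856-650885 on the plus strand, 55 bases after it. *MRPL24* and *MRPL33* each have a second copy further on. The fifth base of the element was T in 19 of the 47 sites, A in 17, C in 10 and G in 1, the last in *MRPL3*. The first base of the element lay 13 to 165 bases after the stop codon, with a median of 53. A C at 2 bases before the element, as in the *MRPL50* site, was counted after the sites had been seen. It was present in 33 of the 39 members (84.6%), and in 253 of the 844 coding genes with the element (30.0%). A match describes the letters in this window and does not show that the protein binds there.

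**Figure D1:**
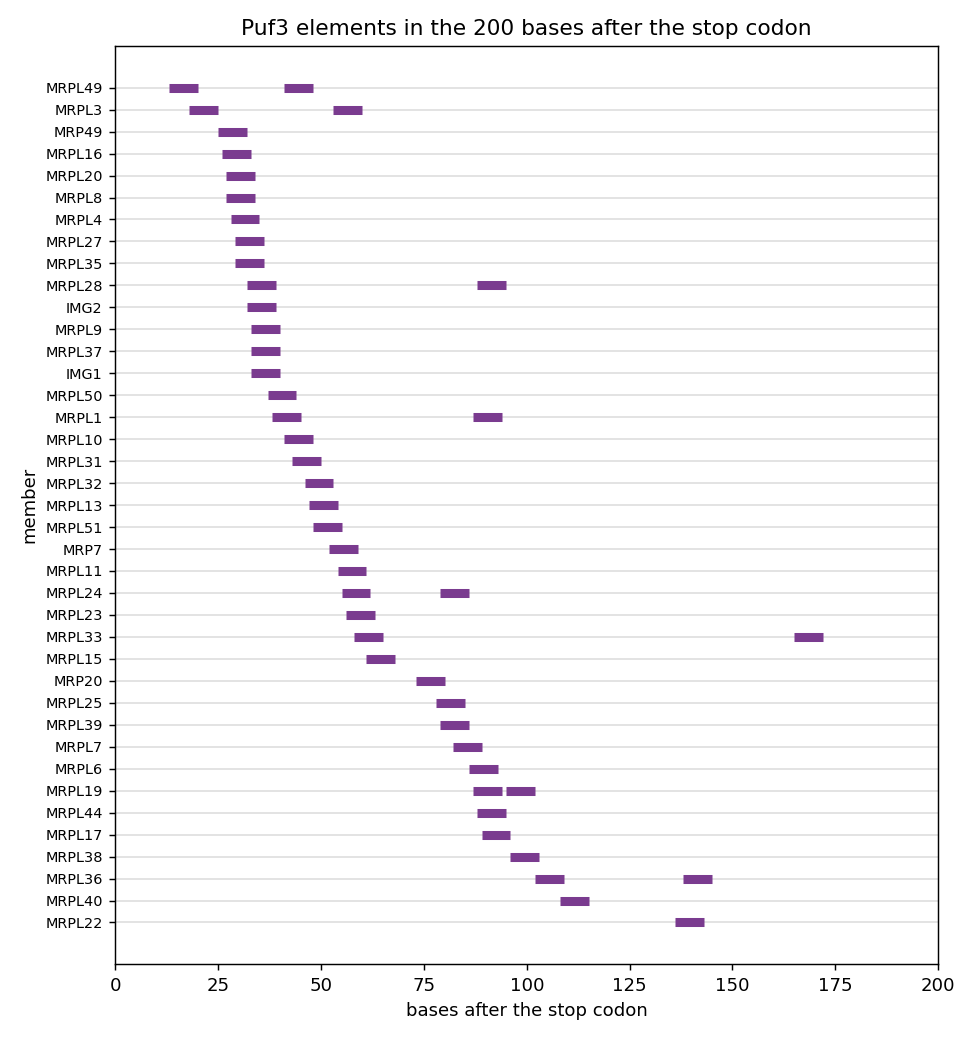
Position of each TGTANATA element (purple bars, 8 bases long) in the 200 bases after the stop codon of the 39 members, in order of their first element; the x axis is in bases. All 39 members have an element, the first bases lie between 13 and 165, and 8 members have 2.

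Motifs in the promoters were less common among the members than the 3′ element. In the window from 250 bases before to 50 bases after the start of the coding sequence, on both strands, CCAAT, the box of the Hap2/3/4/5 activator of respiratory genes, was in 14 of 39 members (35.9%) against 43.3% of all coding genes. AATTTT, the rapid growth element, was in 17 members (43.6%) against 51.7%. GCGATGAG, the core of the PAC motif of ribosome biogenesis genes, was in 1 member (2.56%) against 3.93%.

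For levels, FPKM was used, which is scaled to transcript length and lets genes be set side by side. In WT the members' mean FPKM ran from 22.5 to 126, a 5.61-fold range, with a median of 61.3. The median of all 6587 mRNAs was 29.2, and 3 of the 39 members lay below it. The lowest was *MRPL51* (YPR100W), a mitochondria-specific protein, at 24.1, 21.7 and 21.6 FPKM in WT replicates 1 to 3. *MRPL24*, of the bacterial family bL28, followed at 26.8, 27.4 and 25.4. The libraries of these lowest members did not overlap. *MRPL50* (YNR022C), of the bacterial family bL9, was the highest at 124, 134 and 121 FPKM, and *MRPL44* (YMR225C), the mitochondria-specific mL53, came next at 113, 116 and 112, again without overlap. For most of the order the libraries could not separate neighbours: of the 38 pairs of members next to each other by mean WT FPKM, 30 had overlapping libraries.

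The spread among members widened in the mutant strains. In *pbp1Δ* mean FPKM ran from 16.0 to 121 (7.56-fold, median 46.3), and in *pab1Δpbp1Δ* from 19.8 to 325 (16.4-fold, median 72.4). The ends of the order were *MRPL24* and *MRPL50* in both. The median of all mRNAs also differed, at 29.2 in WT, 29.8 in *pbp1Δ* and 39.5 in *pab1Δpbp1Δ*. The members' median lay above 71.5% of all mRNAs in WT, 63.5% in *pbp1Δ* and 71.2% in *pab1Δpbp1Δ*. The standard deviation of log2(FPKM + 0.1) over the 39 members was 0.59 in WT, 0.64 in *pbp1Δ* and 0.85 in *pab1Δpbp1Δ*. The spread over all mRNAs is not given here. Summed over members, their share of all expected counts was 0.153% ± 0.00393 in WT, 0.121% ± 0.00758 in *pbp1Δ* and 0.207% ± 0.0272 in *pab1Δpbp1Δ* (SD, n = 3). These shares are of counts without TMM scaling.

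Loss of Pbp1 alone was assessed by comparing *pbp1Δ* with WT. Members were lower in *pbp1Δ* almost throughout: 38 of 39 fold changes were negative, and 25 members fell at an adjusted p under 0.01 (quasi-likelihood test of edgeR, p-values adjusted over all entries tested by Benjamini-Hochberg, n = 3 libraries a strain). The background was 6.24% of 6425 entries lower and 5.34% higher. No member was called higher, none was higher at an unadjusted p under 0.05, and DESeq2 called none higher. The falls were modest, with a median log2 fold change of -0.38 for the members and 0.01 for all entries. In 33 members every *pbp1Δ* library lay below every WT library, which was so for 20.3% of all entries.

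The largest fall was that of *MRPL24*, which had 23.3, 23.3 and 22.1 CPM (counts relative to library size after TMM normalization) in WT replicates 1 to 3 and 14.1, 13.4 and 12.4 CPM in *pbp1Δ*. On the log2 scale the fold change was -0.78 (standard error, SE, 0.06, edgeR adjusted p = 6.03e-05). Every WT library lay well above every *pbp1Δ* library. *MRPL40* (YPL173W), of the family uL24 at the polypeptide exit tunnel, had 41.6, 39.7 and 39.8 CPM in WT and 24.8, 26.4 and 24.4 CPM in *pbp1Δ* (log2 fold change -0.68, SE 0.05, edgeR adjusted p = 6.03e-05). *MRPL17* (YNL252C), the mitochondria-specific mL46 of the central protuberance, had 51.0, 49.1 and 47.8 CPM in WT and 32.6, 30.0 and 32.2 CPM in *pbp1Δ* (log2 fold change -0.64, SE 0.05, edgeR adjusted p = 6.19e-05). For both, every *pbp1Δ* library was below the lowest WT library.

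At the other end, *MRPL33* (YMR286W), of the family uL30 and the member with the highest fold change, had 24.5, 24.0 and 20.4 CPM in WT and 25.7, 21.2 and 23.0 CPM in *pbp1Δ* (log2 fold change 0.02, SE 0.09, edgeR adjusted p = 0.863). *MRPL37* (YBR268W), the mitochondria-specific mL54, had 17.6, 17.0 and 16.0 CPM in WT and 16.7, 15.3 and 16.4 CPM in *pbp1Δ* (log2 fold change -0.06, edgeR adjusted p = 0.497). *MRPL50* had 55.3, 58.4 and 54.3 CPM in WT and 54.5, 47.4 and 53.0 CPM in *pbp1Δ* (log2 fold change -0.11, edgeR adjusted p = 0.183). In all of these the libraries of the strains overlapped, and the sign for *MRPL33* turned to -0.06 without WT replicate 3 and to -0.05 without *pbp1Δ* replicate 1.

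By place in the subunit as listed here, the falls included most members at its functional centres. All 3 members near the peptidyl transferase centre, where peptide bonds form, were lower: *MRPL16* (-0.35), *MRP7* (-0.31) and *MRPL9* (-0.29). So were all 5 listed at the exit tunnel, through which the new protein leaves, namely *MRPL40*, *MRPL4* (-0.52), *MRP20* (-0.51), *MRPL8* (-0.38) and *MRPL22* (-0.29). The 3 members of the stalks, mobile arms that handle tRNAs and factors, were *MRPL1* (-0.55), *MRPL11* (-0.51) and *MRPL19* (-0.38), all lower. *MRPL19* overlaps YNL184C on the same strand over 113 bases, so its values may hold reads of both. Of the 5 members in the central protuberance, which faces the small subunit, 4 were lower, *MRPL17*, *MRPL35* (-0.57), *MRPL7* (-0.57) and *MRPL36* (-0.23), and *MRPL28* was not called (-0.38, edgeR adjusted p = 0.0124). Of the remaining 23 members 10 were lower, and their median was -0.27. Besides *MRPL24*, these were *MRPL15* (-0.58), *MRPL3* (-0.57), *MRPL25* (-0.56), *MRPL32* (-0.51), *MRPL31* (-0.49), *MRPL38* (-0.46), *MRPL13* (-0.42), *MRPL6* (-0.39) and *IMG2* (-0.34). *MRPL32*, of the family bL32, is known as a substrate of the m-AAA protease, which trims it before assembly. The families shared with bacteria and the mitochondria-specific proteins had like medians, -0.36 with 17 of 24 lower and -0.38 with 8 of 15 lower.

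The calls of *pbp1Δ* against WT depended on the libraries that set the spread. With all 9 libraries in one fit, in which the more variable *pab1Δpbp1Δ* libraries enter, 18 of 6582 entries were called and no member was among them, while the members' median stayed at -0.38.

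**Figure D2:**
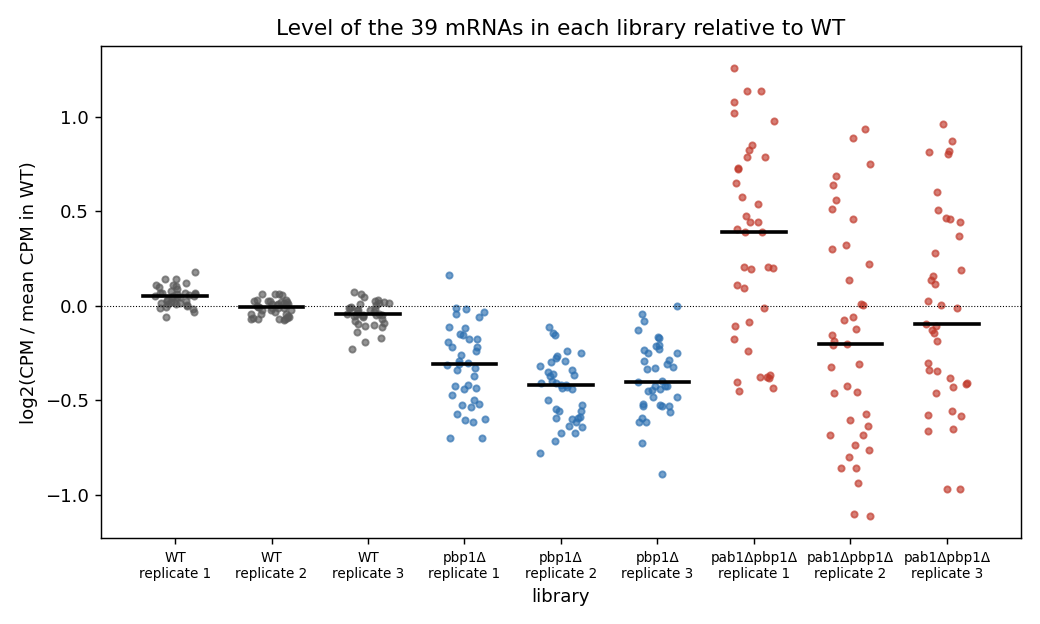
Level of each of the 39 members in each of the 9 libraries as log2 of its normalized CPM over its mean CPM in WT (points, spread sideways for clarity), with the median of the members as a black bar. The medians of the *pbp1Δ* libraries are -0.31, -0.42 and -0.40, and those of the *pab1Δpbp1Δ* libraries 0.39, -0.20 and -0.10, with a wider spread of members.

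Loss of Pab1 was assessed by comparing *pab1Δpbp1Δ* with *pbp1Δ*. Here the members moved apart. A group of 15 rose at an adjusted p under 0.01 (edgeR), led by *MRPL20*, *MRP49* and *MRPL50*, each over 2-fold. The other 24 were not called. The background was 18% of 6573 entries higher and 16.7% lower. No member was called lower, none was lower at an unadjusted p under 0.05, and DESeq2 called none lower. In all, 33 of 39 fold changes were positive, with a median of 0.44 against 0.03 for all entries. In 23 members every *pab1Δpbp1Δ* library lay above every *pbp1Δ* library, against 32.8% of all entries.

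*MRPL20* (YKR085C), the mitochondria-specific protein mL58, had 31.7, 27.0 and 30.6 CPM in *pbp1Δ* replicates 1 to 3 and 85.6, 57.8 and 63.0 CPM in *pab1Δpbp1Δ*, where the mean was 68.8 ± 14.8 (SD, n = 3). It rose 2.31-fold (log2 fold change 1.21, SE 0.16, edgeR adjusted p = 0.00078). The strains did not overlap, and replicate 1 of *pab1Δpbp1Δ* stood highest. *MRP49* (YKL167C), the mitochondria-specific protein mL61, had 17.2, 14.8 and 16.6 CPM in *pbp1Δ* and 42.1, 29.9 and 37.5 CPM in *pab1Δpbp1Δ* (2.25-fold, log2 fold change 1.17, SE 0.15, edgeR adjusted p = 0.000631). *MRPL50*, the most abundant member, had 54.5, 47.4 and 53.0 CPM in *pbp1Δ* and 123, 107 and 98.6 CPM in *pab1Δpbp1Δ* (2.12-fold, log2 fold change 1.09, SE 0.12, edgeR adjusted p = 0.000371). Neither overlapped between strains.

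*MRPL37* had 16.7, 15.3 and 16.4 CPM in *pbp1Δ* and 34.2, 31.2 and 30.9 CPM in *pab1Δpbp1Δ* (log2 fold change 0.99, SE 0.10, edgeR adjusted p = 0.000344). It had the smallest standard error of the members. *MRPL44* had 37.5, 31.3 and 35.0 CPM in *pbp1Δ* and 75.3, 64.4 and 66.7 CPM in *pab1Δpbp1Δ* (log2 fold change 0.99, SE 0.11, edgeR adjusted p = 0.000437). It is the 1 member with an intron in its coding sequence. Its unspliced entry held 1.19% to 2.36% of the gene's counts in *pab1Δpbp1Δ*, 2.97% to 3.42% in *pbp1Δ* and 2.33% to 4.02% in WT, and the rise is that of the spliced entry.

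The other members that rose were *IMG2* (log2 fold change 0.96) and *IMG1* (0.81), both first known from the need for them to keep the mitochondrial genome, then *MRPL27* (0.85), *MRPL49* (0.75), *MRPL31* (0.71), *MRPL32* (0.68), *MRPL51* (0.65), *MRPL23* (0.64), *MRPL33* (0.61) and *MRPL13* (0.57). *MRPL51* overlaps YPR099C on the opposite strand over 323 bases, and whether the counting used strand is not stated, so its value may hold reads of both. Each of the 15 fold changes was also positive in the other settings tried. Of the 15 calls, 6 held in every one of these settings (*IMG2*, *MRP49*, *MRPL20*, *MRPL37*, *MRPL44* and *MRPL50*). The number of members called higher was 6 when *pbp1Δ* replicate 1, 2 or 3 or *pab1Δpbp1Δ* replicate 3 was left out, where fewer libraries also leave fewer degrees of freedom, and 17 without *pab1Δpbp1Δ* replicate 1 or 2. The fits with 6 called 860 to 1253 entries in either direction, against 2285 of 6573 in the main fit. Without *pab1Δpbp1Δ* replicate 1 it was 3917 of 6631 entries, and without replicate 2 it was 1943 of 6593.

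The lowest fold changes were all within the spread of the libraries. *MRPL39* (YML009C), of the family bL33 and the shortest member, had 10.9, 8.94 and 9.26 CPM in *pbp1Δ* and 10.2, 8.20 and 7.98 CPM in *pab1Δpbp1Δ* (log2 fold change -0.14, SE 0.16, edgeR adjusted p = 0.482). *MRPL40* had 24.8, 26.4 and 24.4 CPM in *pbp1Δ* and 30.5, 18.8 and 20.6 CPM in *pab1Δpbp1Δ* (log2 fold change -0.11, SE 0.18, edgeR adjusted p = 0.621). Replicate 1 was above the *pbp1Δ* libraries and replicates 2 and 3 below them, and without replicate 1 *MRPL40* was called lower (-0.36, edgeR adjusted p = 0.00586).

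*MRPL3* (YMR024W), the mitochondria-specific mL44, which has a ribonuclease III-like domain, had 77.2, 73.1 and 72.3 CPM in *pbp1Δ* and 81.8, 61.1 and 70.4 CPM in *pab1Δpbp1Δ* (log2 fold change -0.06, edgeR adjusted p = 0.687). *MRPL10* (YNL284C), of the family uL15, had 42.9, 41.6 and 40.3 CPM in *pbp1Δ* and 53.3, 29.9 and 37.6 CPM in *pab1Δpbp1Δ* (log2 fold change -0.05, edgeR adjusted p = 0.853). In both, as in *MRPL40*, replicate 1 of *pab1Δpbp1Δ* was above and replicates 2 and 3 below all *pbp1Δ* libraries. *MRPL24* had 14.1, 13.4 and 12.4 CPM in *pbp1Δ* and 16.8, 10.6 and 11.7 CPM in *pab1Δpbp1Δ* (log2 fold change -0.03, edgeR adjusted p = 0.904), with the same pattern. Under upper-quartile scaling, with which all entries had a median of 0.21 in place of 0.03, the fold changes of these 5 members turned positive (0.04 to 0.15).

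**Figure D3:**
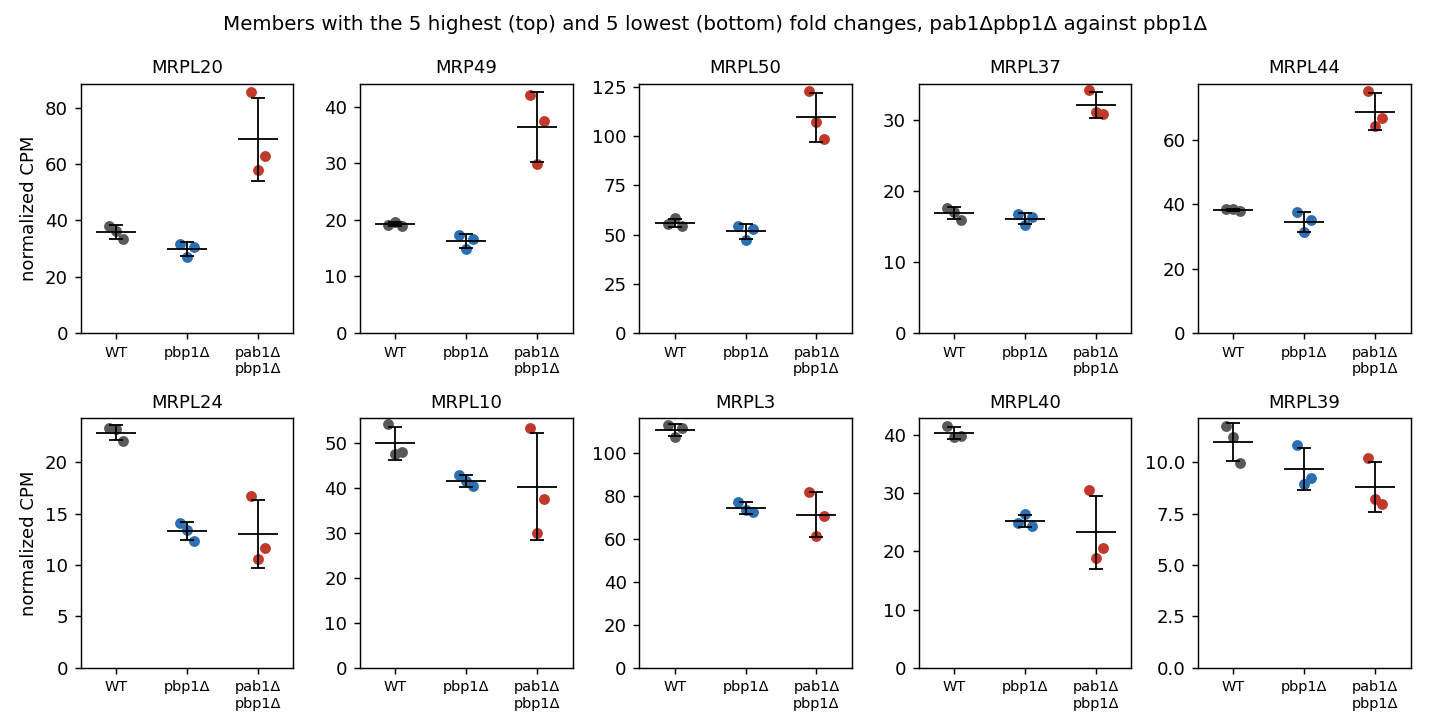
Normalized CPM (y axis, from 0) of the members with the 5 highest (top row) and the 5 lowest (bottom row) fold changes in *pab1Δpbp1Δ* against *pbp1Δ*, with a point for each library and the mean and SD of 3 libraries in black. In the top row the *pab1Δpbp1Δ* libraries lie above all others, as for *MRPL20* (57.8 to 85.6 against 27.0 to 31.7 in *pbp1Δ*), and in the bottom row they overlap those of *pbp1Δ*.

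The *pab1Δpbp1Δ* libraries differed in how far the members stood above *pbp1Δ*. Relative to the mean of *pbp1Δ*, the median log2 ratio of the members was 0.72 in replicate 1, 0.18 in replicate 2 and 0.40 in replicate 3, with 39, 25 and 30 of 39 members above that mean. Without replicate 1 the median fold change of the members was 0.30, and without replicate 2 it was 0.56.

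By place in the subunit as listed here, all 15 rises were among the 23 members not listed at a named functional centre. Their median log2 fold change was 0.65. Members near a centre may be missing from that list. None of the 16 members at the peptidyl transferase centre, exit tunnel, stalks and central protuberance was called higher or lower in the main edgeR fit. Of these 16, 5 were higher at an unadjusted p under 0.05, and DESeq2 called 1 higher (3116 of 6864 entries called in either direction). With all 9 libraries in the fit 4 were called higher, 2 in the central protuberance, 1 at the exit tunnel and 1 in the stalks, beside 15 of the other 23. That fit called 3120 of 6582 entries. Under upper-quartile scaling 5 of these 16 were called higher, 2 in the central protuberance, 2 at the exit tunnel and 1 in the stalks, beside 15 of the other 23. With that scaling 2345 of 6573 entries were called in either direction. Under the main scaling the medians were 0.05 (3 members), 0.19 (5), 0.36 (3) and 0.03 (5). The largest values among them were those of *MRPL28* in the central protuberance (0.66, edgeR adjusted p = 0.0154) and *MRPL8* at the exit tunnel (0.50, edgeR adjusted p = 0.0249). Among the mitochondria-specific proteins 9 of 15 rose, with a median of 0.66, and among the families shared with bacteria 6 of 24 rose, with a median of 0.34. Neither this difference nor that between the places in the subunit was tested. Both groupings also run with coding length. Most mitochondria-specific members were shorter, and most of the 16 members at the named places longer, than the members' median of 588 bases. The part of each was not tested.

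**Figure D4:**
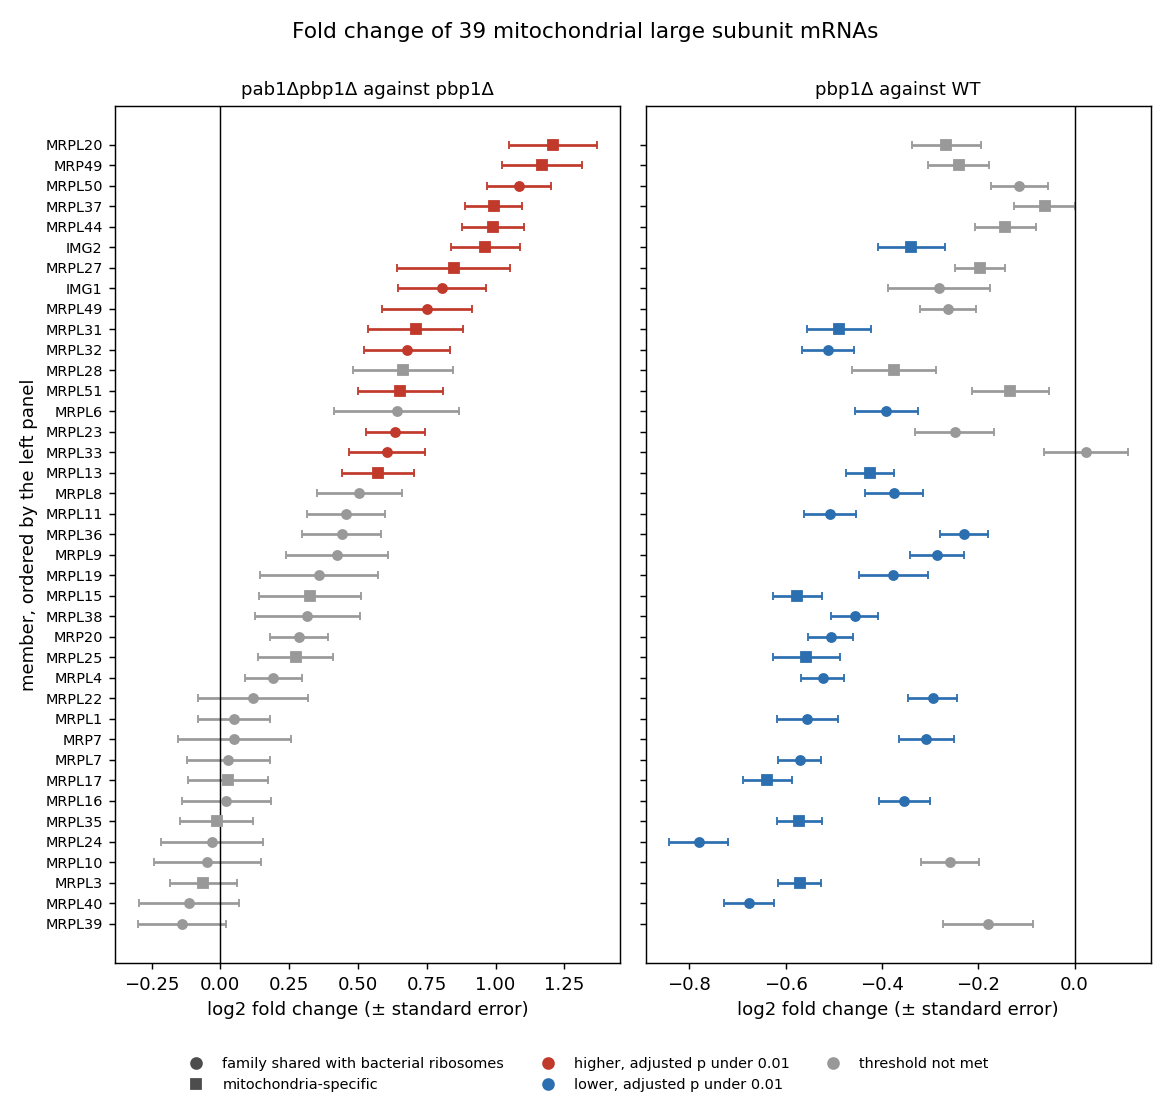
Log2 fold change with its standard error of each of the 39 members in *pab1Δpbp1Δ* against *pbp1Δ* (left) and *pbp1Δ* against WT (right), in the order of the left panel; circles are families shared with bacterial ribosomes, squares are mitochondria-specific proteins, and red and blue mark adjusted p under 0.01. On the left 15 members are red and none blue, and on the right 25 are blue and none red; both panels use the *pbp1Δ* libraries.

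Coding length moved with the fold changes in both comparisons. The members' coding sequences were 213 to 1173 bases long, with a median of 588. For *pab1Δpbp1Δ* against *pbp1Δ*, Spearman's rho between coding length and log2 fold change was -0.64 over the 39 members, and -0.24 over 5777 coding genes tested, a description over genes that share the same libraries. Over the 32 small subunit genes it was -0.80. The 13 shortest members had a median of 0.71 with 9 of them higher, the middle 13 a median of 0.50 with 5 higher, and the 13 longest a median of 0.05 with 1 higher, *MRPL13*. Other genes of the same length range showed a smaller step: under 450 bases the members' median was 0.78 (12 members) and that of the other genes 0.39 (594), and from 750 bases on they were 0.05 (16) and 0.06 (1204). *MRPL39*, the shortest of all, at -0.14, lay apart from the other short members.

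In *pbp1Δ* against WT rho was -0.62 over the members, -0.62 over the 32 small subunit genes and -0.27 over 5710 coding genes. The 13 shortest members had a median of -0.20 with 4 lower, and the 13 longest a median of -0.52 with 12 lower. The other genes of these lengths had medians above 0, with 0.09 under 450 bases against -0.19 for the members, and 0.04 from 750 bases on against -0.54. The part that length, or anything that goes with it, had in these values was not tested.

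**Figure D5:**
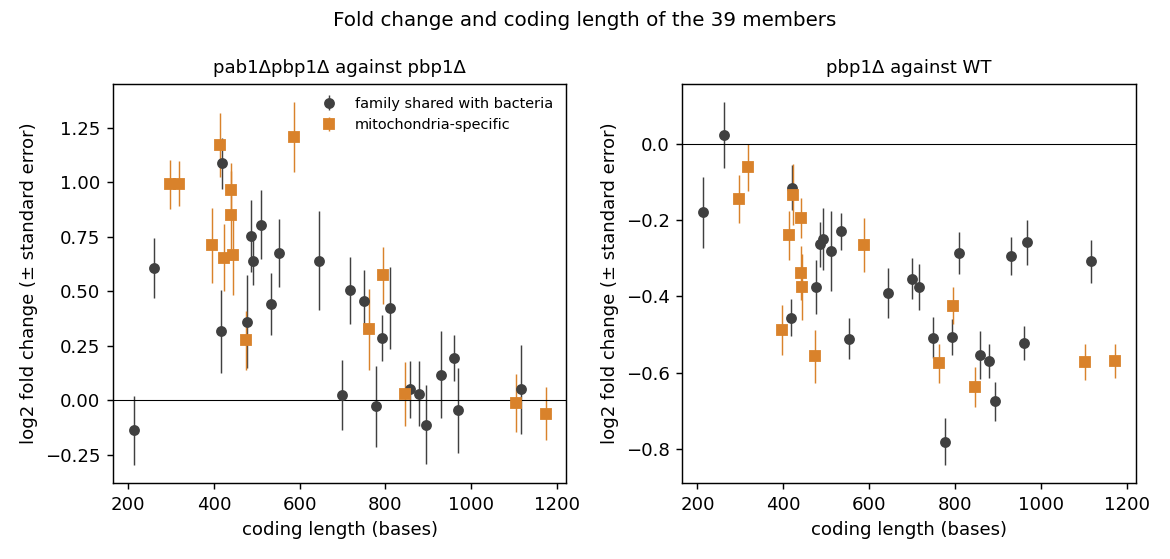
Log2 fold change with its standard error (y axis) against coding length in bases (x axis) for the 39 members, in *pab1Δpbp1Δ* against *pbp1Δ* (left) and *pbp1Δ* against WT (right); dark circles are families shared with bacterial ribosomes and orange squares mitochondria-specific proteins. Short members lie higher than long ones in both panels (rho -0.64 and -0.62 over 39 members), with *MRPL39* at the far left of the left panel at -0.14.

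Both deletions together were compared with WT, a comparison that shares its libraries with those above. Of the members, 7 were higher and 6 lower in *pab1Δpbp1Δ* than in WT, shares below the background of 21.8% of 6558 entries higher and 21.6% lower, and the median was 0.11 against 0.03 for all entries. Higher were *MRPL50* (log2 fold change 0.96), *MRPL20* (0.93), *MRPL37* (0.92), *MRP49* (0.91), *MRPL44* (0.83), *MRPL33* (0.62) and *IMG2* (0.61). Lower were *MRPL24* (-0.83), *MRPL40* (-0.80), *MRPL3* (-0.65), *MRPL17* (-0.62), *MRPL35* (-0.60) and *MRPL1* (-0.52). For *MRPL20* all of 33.4 to 37.9 CPM in WT lay below the 57.8 to 85.6 CPM in *pab1Δpbp1Δ*. For *MRPL24* the order was the reverse, 22.1 to 23.3 CPM against 10.6 to 16.8 CPM.

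The split into higher and lower members against WT depended on the scaling and on single libraries. With upper-quartile scaling 12 members were higher and 0 lower, while all entries had a median of 0.28. Without *pab1Δpbp1Δ* replicate 1 there were 9 higher and 14 lower and the members' median was -0.13. That fit called 4195 of 6624 entries in either direction, against 2845 of 6558 in the main fit. Without WT replicate 1, 2 or 3 or *pab1Δpbp1Δ* replicate 3 no member was called lower and 4 or 5 were called higher. These fits called 1387 to 1774 entries.

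Other genes of mitochondrial translation were read beside the members, by list. The 32 small subunit genes gave 9 higher and 0 lower in *pab1Δpbp1Δ* against *pbp1Δ* with a median of 0.48 (5 were lower at an unadjusted p under 0.05 and 1 in DESeq2), led by *MRPS16* (1.20) and *RSM19* (1.18), and 0 higher and 20 lower in *pbp1Δ* against WT with a median of -0.36 (0 higher at an unadjusted p under 0.05 and in DESeq2). Of 5 further large subunit genes, which carry other names, *MRX14* was higher in the first comparison (1.08) and 3 were lower in the second. Their medians were 0.46 and -0.25. The 9 translation factors of mitochondria gave 6 lower in *pbp1Δ* against WT (median -0.34), among them the elongation factor *MEF1* (-0.74). None of them was called in *pab1Δpbp1Δ* against *pbp1Δ* by the main edgeR fit (median 0.20), where 3 were higher and 1 lower at an unadjusted p under 0.05 and DESeq2 called 2 higher. With upper-quartile scaling 3 of the 9 were called higher there (median 0.38), as were 15 of the small subunit genes. Over all entries that scaling gave 2345 of 6573 called in either direction, and DESeq2 called 3116 of 6864. The 10 assembly and insertion factors gave 4 lower in *pbp1Δ* (median -0.21) and no call in *pab1Δpbp1Δ* against *pbp1Δ* by the main edgeR fit (median -0.15, which turned to 0.03 with 1 called higher under upper-quartile scaling, with 2 higher and 1 lower at an unadjusted p under 0.05 and 1 higher in DESeq2). With all 9 libraries in the fit, 15 small subunit genes, 2 translation factors and 1 assembly factor were called higher there, and 1 small subunit gene lower. That fit called 3120 of 6582 entries.

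The mRNAs of the cytosolic large subunit proteins moved in the opposite direction in *pab1Δpbp1Δ*. Of 82 genes 57 were lower and 0 higher in *pab1Δpbp1Δ* against *pbp1Δ*, with a median of -0.90 (0 higher at an unadjusted p under 0.05 and in DESeq2). In *pbp1Δ* against WT none was called by edgeR and the median was -0.07, with 1 higher and 7 lower at an unadjusted p under 0.05 and 2 lower in DESeq2. The mRNA of *HAP4*, the regulatory subunit of the Hap2/3/4/5 activator, was lower in *pbp1Δ* than in WT (-0.52, edgeR adjusted p = 0.00113) and higher in *pab1Δpbp1Δ* than in *pbp1Δ* (1.33, edgeR adjusted p = 0.000196). That of *PUF3* was lower in *pbp1Δ* (-0.34, edgeR adjusted p = 0.00139), and in *pab1Δpbp1Δ* against *pbp1Δ* its fold change was 0.41 (edgeR adjusted p = 0.0195). Of the 7 regulators listed, 2 were higher (*HAP4* and *HAP5*, 0.82) and 0 lower in *pab1Δpbp1Δ* against *pbp1Δ*, with a median of 0.41 (1 was lower at an unadjusted p under 0.05 and 0 in DESeq2). The values of the others were 0.47 for *HAP3*, -0.04 for *HAP2*, -0.21 for *HAP1* and -0.24 for *SFP1*. In *pbp1Δ* against WT 0 were higher and 4 lower, the further ones being *HAP2* (-0.28) and *SFP1* (-0.26), with a median of -0.26 (0 higher at an unadjusted p under 0.05 and in DESeq2). Upper-quartile scaling gave 3 higher, *PUF3* among them, in the first comparison and 2 lower, *HAP4* and *PUF3*, in the second. Over all entries it gave 2345 of 6573 called in the first and 681 of 6425 in the second. With all 9 libraries in one fit, *PUF3* was called higher in the first (0.41, edgeR adjusted p = 0.00395), and in the second 1 of the 32 small subunit genes, 1 of the 9 translation factors, 1 of the 10 assembly factors and 0 of the 7 regulators were lower, with *HAP4* at an edgeR adjusted p of 0.0423 and *PUF3* at 0.119.

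Other genes that have the Puf3 element were counted in the same way. Of 805 such genes 794 were tested in *pbp1Δ* against WT, and 130 were lower and 30 higher, with a median of -0.05. Over all 6425 entries of that comparison 6.24% were lower and 5.34% higher. In *pab1Δpbp1Δ* against *pbp1Δ* 797 were tested, and 132 were higher and 114 lower, with a median of 0.04. Over all 6573 entries of this comparison 18% were higher and 16.7% lower. Whether the element has a part in the members' values was not tested.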

How the data were processed

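RNA-Seq data from 3 libraries each of WT, *pbp1Δ* and *pab1Δpbp1Δ* were analysed. The authors aligned reads to a yeast transcriptome (build R64) with bowtie 1.0.0 and used RSEM 1.3.0, whose expected counts per transcript they deposited without normalization. FPKM, scaled to transcript length and aligned reads, were deposited by the authors too. Library totals are given with the results. Expected counts were rounded, filtered (filterByExpr, minimum count 10), scaled by TMM and tested in edgeR 4.0.16 (R 4.3.3, limma 3.58.1) with the quasi-likelihood test on the 6 libraries of each pair of strains. A Benjamini-Hochberg adjusted p under 0.01 counted as a change. CPM are TMM-scaled over all 9 libraries. The procedure was tested on simulated data. Figures were drawn in Python 3.11.15 with matplotlib 3.10.9.

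Alternatives were RLE and upper-quartile scaling, DESeq2 1.42.0, no filter, 10 counts in every library, all 9 libraries, a block for replicate number, the table per locus, an adjusted p under 0.05, and each library left out in turn. FPKM levels were also read from the table per locus and with a minimum of 10 in every library. The members, gene lists and motifs were chosen with earlier results of these data known. By rule, values in every library were given for the members with the 5 highest and 5 lowest fold changes in *pab1Δpbp1Δ* against *pbp1Δ*, the 3 highest and 3 lowest in *pbp1Δ* against WT and the 2 highest and 2 lowest mean WT FPKM, and members called changed were named. Same-numbered libraries of different strains were not taken as paired.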

Additional observations from a re-analysis of the deposited data

How the results depend on the processing

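In *pab1Δpbp1Δ* against *pbp1Δ*, 6 to 17 members were higher and 0 to 1 lower when a library was left out, and the members' median was 0.30 to 0.56. All entries called in these fits numbered 860 to 3917, against 2285 in the main fit. Upper-quartile scaling gave 20 members higher, with 2345 entries called, and all 9 libraries in the fit gave 19, with 3120 entries called. In *pbp1Δ* against WT, 17 to 27 were lower when a library was left out, with a median of -0.43 to -0.35, and 0 with all 9 libraries in the fit. Entries called there numbered 326 to 695 with a library left out and 18 with all 9 libraries, against 744 in the main fit. In *pab1Δpbp1Δ* against WT, 4 to 9 were higher and 0 to 14 lower when a library was left out, with a median of -0.13 to 0.20. All entries called in these fits numbered 1387 to 4195, against 2845 in the main fit of that comparison. Upper-quartile scaling gave 12 higher and 0 lower there, with 2923 entries called. An adjusted p under 0.05 gave 12 higher and 8 lower, with 4030 entries called. The cause of these shifts was not tested. Fits with a library left out also hold fewer libraries.

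Some members with fold changes near 0 changed direction. In *pab1Δpbp1Δ* against *pbp1Δ* with upper-quartile scaling, *MRPL3* was at 0.12, *MRPL10* at 0.13, *MRPL24* at 0.15, *MRPL39* at 0.041 and *MRPL40* at 0.067. With a library left out, fold changes ran from -0.31 to 0.13 for *MRPL10*, -0.26 to 0.10 for *MRPL24*, -0.18 to 0.035 for *MRPL3* and -0.36 to 0.018 for *MRPL40*, and from -0.057 to 0.084 for *MRPL33* in *pbp1Δ* against WT.

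The deviations of same-numbered libraries correlated at -0.0783 to 0.196, which with 3 libraries a strain cannot exclude a pairing. With replicate number as a block, 14 members were higher in *pab1Δpbp1Δ* against *pbp1Δ*, 31 lower in *pbp1Δ* against WT, and 8 higher and 7 lower in *pab1Δpbp1Δ* against WT. All entries called were 2153 of 6573 in the first of these (2285 without the block) and 1448 of 6425 in the second (744 without it). In the third they were 2921 of 6558 (2845 without the block). The members' FPKM median in WT was 61.3 in the main table, in the table per locus and with an FPKM of at least 10 in every library, a minimum that all 39 met.

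Every member had 552 or more counts in every library. In *pab1Δpbp1Δ* against *pbp1Δ*, whose libraries varied more, the standard errors of the members were 0.10 to 0.23 on the log2 scale against 0.04 to 0.11 in *pbp1Δ* against WT. If the WT libraries are technical replicates, the spread of cultures is not known for WT.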
